A study of Homo sapiens with 2 samples.

Results

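The genes described here carry the negative feedback and the transcriptional output of the ERK pathway: the phosphatase genes DUSP4, DUSP5 and DUSP6, the Sprouty genes SPRY1, SPRY2 and SPRY4, the Sprouty-related genes SPRED1 and SPRED2, and the ETS transcription factor genes ETV4 and ETV5. They were chosen by gene symbol, and all 10 were found among the 20985 genes of the deposited table. Polyadenylated RNA was sequenced from 1 culture of the parental line HCC827 and 1 culture of its gefitinib-resistant derivative HCC827 ZDR3. HCC827 is an established lung adenocarcinoma line whose EGFR carries an activating mutation, and gefitinib inhibits the EGFR kinase. The resistant cells were selected in gefitinib over successive months, starting with 1 month at 10 nM and then with a dose 3-fold higher every month up to 1 µM, and 3 colonies were taken. No other allele or agent is named for either group. The labels do not say whether ZDR3 came from 1 colony or whether gefitinib was present at harvest, so the drug, the time in culture and the selection cannot be told apart. With 1 library per group there was no replicate check and no test, and each difference given is one between these 2 libraries.

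ERK is the last kinase of the RAS, RAF and MEK cascade that growth factor receptors such as EGFR switch on. Active ERK induces genes that restrain it: DUSP phosphatases remove the activating phosphates from MAP kinases, while Sprouty and SPRED proteins act upstream, near receptor adaptors, RAS and RAF. ETV4 and ETV5 belong to the PEA3 group of ETS factors, which are also induced by ERK. In EGFR-mutant lung cancer cells the transcripts of these genes fall when EGFR is inhibited, and they are widely read as a measure of pathway output.

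The libraries held 257192607 parental and 243549871 resistant gene reads. Levels are in normalised reads, not divided by gene length, on a scale where 1 unit equals 143 parental reads or 138 resistant reads. The epithelial markers EPCAM, KRT8, KRT18, KRT19 and CDH1 were expressed in both libraries, with a summed level of 11490 in the parental and 3620 in the resistant one, and the lung lineage factor NKX2-1 stood at 95.0 and 9.33. Of 4 leukocyte and 2 endothelial markers found, 0 reached a level of 1 in either library, with sums of 0.266 parental and 0.371 resistant for the leukocyte and 0.315 and 0.0654 for the endothelial markers. Of 4 fibroblast markers 1 did, COL1A1, at 9.15 and 1.76. The part of the lower epithelial markers in the results below was not tested.

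In the resistant library DUSP6 and SPRY1 were several-fold lower, SPRY4 was just over 2-fold higher, and the others differed by less than 2-fold. On the log2 scale with 1 unit added to both levels, 2 of the 10 genes were lower and 1 was higher by 2-fold or more. A gene was called expressed where either library had a level of 1 or above. Of 13777 expressed genes, 9.68% were lower and 10.6% were higher by 2-fold or more, so in a set of 10 genes these counts lie near the background. All 10 genes were expressed in both libraries. The log2 ratio, resistant over parental, was below 0 for 8 of the 10 (7 with any of 3 other scalings, under which ETV5 turned), with a median of -0.41, against 52.2% and a median of -0.03 for all expressed genes. In RNA from whole cultures, fewer cells that express a gene and less RNA of it per cell cannot be told apart.

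**Figure D1:**
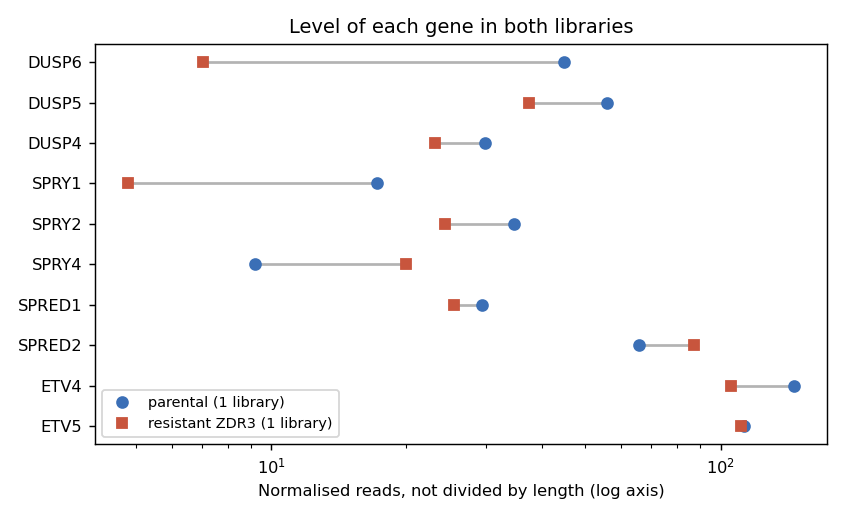
Level of each of the 10 genes in normalised reads, not divided by length, on a log axis, with 1 library per point (circles, parental; squares, resistant). The longest lines join the points of DUSP6, at 44.9 and 7.05, and SPRY1, at 17.2 and 4.80, and for SPRY4 and SPRED2 the resistant point lies to the right.

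The 3 phosphatase genes were all lower in the resistant library, to unequal extents. DUSP6 (ENSG00000139318) encodes a cytoplasmic phosphatase with high selectivity for ERK. It had 6411 parental and 970 resistant reads, or levels of 44.9 and 7.05. The plain ratio puts it 6.37-fold lower, with an exact 95% counting interval of 5.95 to 6.82, and the log2 ratio with 1 unit added was -2.51. Of the 13777 expressed genes 288 had a lower log2 ratio. That interval and the others given here cover counting error alone, since without molecular identifiers reads need not be separate molecules, and the spread between cultures is unknown. The annotated antisense gene AC024909.2 covers 40.5% of the DUSP6 exonic bases, and the strand setting of the counting is not given, so reads from the 2 genes cannot be told apart. DUSP5 (ENSG00000138166), a nuclear phosphatase that also binds ERK selectively, stood at 55.9 and 37.5, a ratio of 0.672 with an interval of 0.649 to 0.696. DUSP4 (ENSG00000120875), a nuclear phosphatase that acts on ERK and JNK, stood at 29.9 and 23.1, a ratio of 0.772 with an interval of 0.737 to 0.808. The counting interval of DUSP6 did not reach those of DUSP5 and DUSP4.

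Sprouty genes went in opposite directions. SPRY1 (ENSG00000164056) had 2453 parental and 661 resistant reads, or levels of 17.2 and 4.80. It was 3.57-fold lower by the plain ratio, with an interval of 3.28 to 3.90, and its log2 ratio was -1.65. SPRY2 (ENSG00000136158), the most abundant of the 3 per length in both libraries, stood at 34.7 and 24.4, a ratio of 0.704 with an interval of 0.674 to 0.736. SPRY4 (ENSG00000187678) was the gene of the 10 with the largest increase, from 1317 to 2747 reads or from a level of 9.22 to one of 19.96. Its plain ratio was 2.17 with an interval of 2.03 to 2.31, and its log2 ratio of 1.04 lay just past the 2-fold threshold. With 5 units added in place of 1, that log2 ratio was 0.81, below the threshold. SPRY4 also lay among neighbours with raised ratios, as given below.

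SPRED and PEA3 genes differed little. SPRED proteins hold the RAS GTPase-activating protein neurofibromin, the product of NF1, at the membrane. SPRED1 (ENSG00000166068) stood at 29.4 and 25.6, a ratio of 0.869 with an interval of 0.831 to 0.909. SPRED2 (ENSG00000198369) was higher, at 65.7 and 87.5, a ratio of 1.33 with an interval of 1.30 to 1.37. With SPRY4 it made up the 2 genes of the 10 that were higher in the resistant library on the authors' scale. ETV4 (ENSG00000175832) stood at 146 and 106, a ratio of 0.725 with an interval of 0.710 to 0.740. ETV5 (ENSG00000244405) stood at 113 and 111, and its ratio of 0.989 had an interval of 0.967 to 1.01 that includes 1. ETV5 was above its parental level once the libraries were scaled to equal totals, equal median ratio or by TMM. The annotation has 2.83% of ETV5 exonic bases inside DGKG on the same strand and 1.89% of ETV4 exonic bases opposite DHX8.

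**Figure D2:**
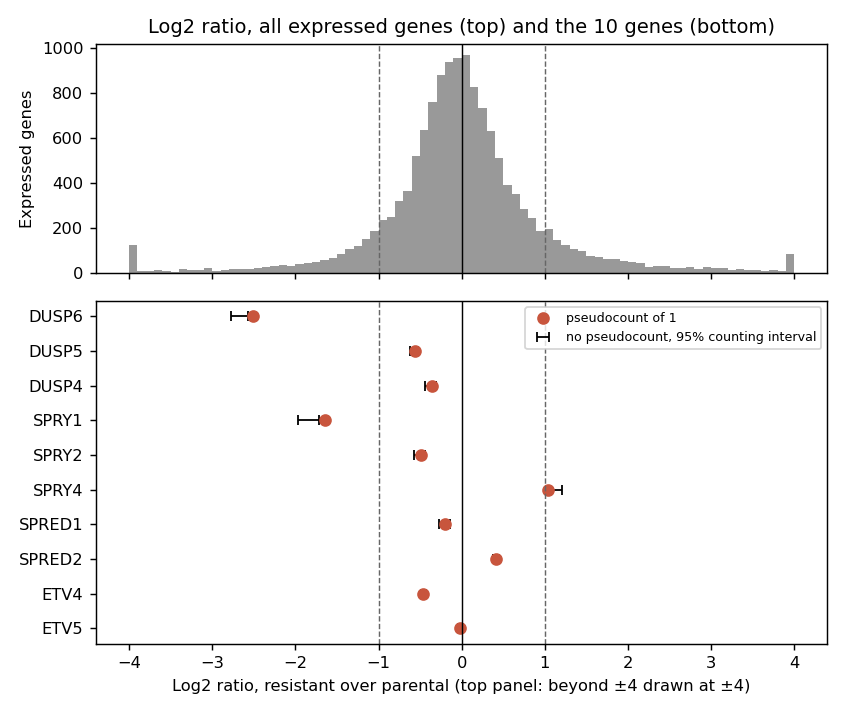
Log2 ratio, resistant over parental. Top, number of expressed genes per bin of log2 ratio, with values beyond ±4 drawn at ±4; bottom, the 10 genes with 1 unit added (circles) and without it with the 95% counting interval (bars), dashed lines marking 2-fold. DUSP6 at -2.51 and SPRY1 at -1.65 lie left of the lower dashed line and SPRY4 at 1.04 on the upper one.

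To show the sequence before the starts of the genes that differed most, the 250 bases upstream of a start of DUSP6, SPRY1 and SPRY4 were taken from RefSeq annotation of build GRCh38.p14. Which start these cells use was not determined, and SPRY1 has 2 starts in the table, of which the second is shown because it holds motif matches. Capitals mark the short ETS core CGGAAG or the GC box GGGCGG, on either strand, and each sequence reads 5′ to 3′ toward the start.
DUSP6, chr12:89352502-89352751, minus strand: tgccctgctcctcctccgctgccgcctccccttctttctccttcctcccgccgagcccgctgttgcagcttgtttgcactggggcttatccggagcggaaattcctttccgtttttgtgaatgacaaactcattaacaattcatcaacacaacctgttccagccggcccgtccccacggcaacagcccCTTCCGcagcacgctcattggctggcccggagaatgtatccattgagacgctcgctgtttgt
SPRY1, chr4:123398136-123398385, plus strand: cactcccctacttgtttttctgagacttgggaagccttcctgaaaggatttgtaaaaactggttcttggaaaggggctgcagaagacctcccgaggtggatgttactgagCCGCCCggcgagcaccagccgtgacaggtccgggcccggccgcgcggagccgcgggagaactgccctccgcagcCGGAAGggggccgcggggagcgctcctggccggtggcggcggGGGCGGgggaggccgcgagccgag
SPRY4, chr5:142324248-142324497, minus strand: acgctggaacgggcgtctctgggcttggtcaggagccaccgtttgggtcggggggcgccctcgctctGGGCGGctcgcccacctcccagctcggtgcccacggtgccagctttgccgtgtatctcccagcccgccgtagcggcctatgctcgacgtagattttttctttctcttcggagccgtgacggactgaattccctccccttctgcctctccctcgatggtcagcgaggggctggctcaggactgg

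The table held 10 such windows for 6 of the 10 genes, namely DUSP6, SPRY1, SPRY2, SPRY4, SPRED1 and SPRED2. On both strands, 0 of these 10 windows held the octamers TGAATGAA or TGAATGGA of the repressor CIC, the AP-1 site TGACTCA or the longer ETS core ACCGGAAG. Of all 35116 windows of this length 1.40%, 0.832%, 4.20% and 1.78% held them. Other forms of the CIC octamer were not searched. The count of 0 thus does not show that these windows, that of DUSP6 included, lack such a form. Further motifs were searched after the counts of 0 for the CIC, AP-1 and longer ETS motifs were seen. The short ETS core, which is contained in the longer one, was in 2 of the 10 windows, 62 to 57 bases before the DUSP6 start on the strand opposite to the one printed and 66 to 61 bases before the SPRY1 start on the printed strand, and in 16.5% of all windows. The GC box was in 4 of the 10 windows and in 42.6% of all. The CRE site TGACGTCA was in 0 of the 10 and 1.65% of all, and the TATA box TATAAA in 1 of the 10, before a start of SPRED2, and 10.7% of all. These matches describe letters in the windows and not bound sites.

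Levels of different genes can be compared only per length, so they were divided by the length of the principal transcript of each gene in GENCODE release 29. On this scale ETV4 led in both libraries, at 60.0 normalised reads per kb in the parental and 43.5 in the resistant one, followed by ETV5 at 27.4 and 27.1. In the parental library the order went on with DUSP5 (21.9 per kb), SPRED2 (16.0), SPRY2 (12.8), DUSP6 (10.2), SPRY1 (6.58), DUSP4 (5.40), SPRY4 (3.87) and SPRED1 (3.78), of which SPRY4 and SPRED1 overlapped in their counting intervals. DUSP6 thus stood at rank 6 of the 10 in the parental library. In the resistant library it was at rank 10, at 1.60 per kb, next to SPRY1 at 1.84 with overlapping intervals, while SPRY4 stood at rank 6 with 8.39. With the length of all annotated exons in place of the principal transcript DUSP6 kept rank 6 in the parental library and stood at rank 9 in the resistant one. SPRY4, whose annotated exons span 6565 bases against 2379 in its principal transcript, was then at rank 10 and rank 8. In the parental library DUSP5, at 21.4 per kb of all exons, was above ETV5, at 19.4, so their order there depended on the length used.

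The balance within each family differed between the libraries. Sprouty transcripts, with SPRY3 included, summed to 24.0 normalised reads per kb in parental and 19.6 in resistant cells. SPRY1 made up 27.4% of the parental and 9.42% of the resistant sum, SPRY4 made up 16.1% and 42.9%, and SPRY2 53.3% and 46.1%. SPRY1 was thus above SPRY4 in the parental library and below it in the resistant one. With the length of all exons the sums were 17.9 and 12.6, of which SPRY4 made up 7.85% and 24.1%. SPRY2 then made up 63.8% of both sums, so its lower share in the resistant library depended on the length used. Of the summed DUSP4, DUSP5 and DUSP6 levels, 37.5 and 20.5 per kb, DUSP6 made up 27.2% in parental and 7.83% in resistant cells. DUSP5 supplied most of both sums, 58.3% and 71.8%. The SPRED genes, SPRED3 included, summed to 20.6 and 26.2, with SPRED2 at 78.1% and 81.6%. ETV1, ETV4 and ETV5 together summed to 101 and 85.7, with ETV4 at 59.7% and 50.8%.

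**Figure D3:**
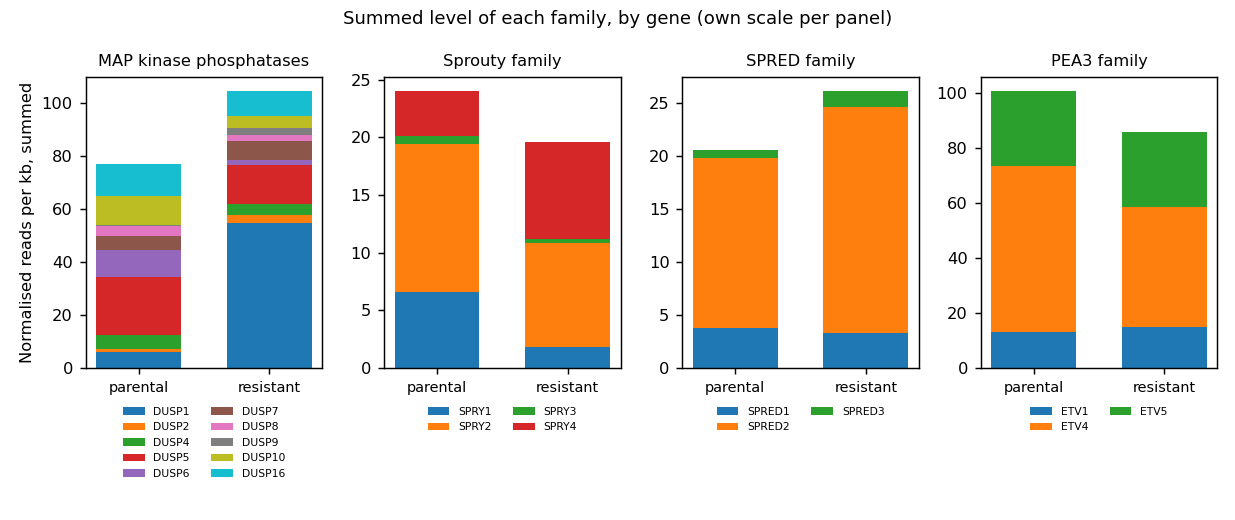
Summed level of each family in normalised reads per kb of principal transcript, 1 library per bar, stacked by gene, with a scale of its own in each panel. DUSP1 fills 52.5% of the resistant phosphatase bar against 7.996% of the parental one, and SPRY4 fills 42.9% of the resistant Sprouty bar against 16.1%.

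Paralogs outside the set also went both ways. SPRY3 was lower, with a level of 6.71 in parental and 2.75 in resistant cells (log2 ratio -1.04), and SPRED3 was at 3.49 and 7.27 (0.88). ETV1, the third PEA3 gene, was at 88.6 and 101.8 (0.20). Among the 7 other dual-specificity MAP kinase phosphatase genes 3 were higher and 1 was lower by 2-fold or more, and the median log2 ratio was 0.51. Of all expressed genes 10.6% were higher and 9.68% were lower by that much. DUSP1, an immediate-early nuclear phosphatase of p38, JNK and ERK, stood at 12.4 and 111, a plain ratio of 8.92 with an interval of 8.49 to 9.37. DUSP9 (1.93) and DUSP2 (1.07) were the others higher, from low levels of 1.07 and 1.87, and DUSP10, which acts on p38 and JNK, was lower (-1.21). Over these 7 and the 3 genes of the set, phosphatase transcripts summed to 77.0 per kb in parental and 105 in resistant cells. The sum was thus higher in the library in which DUSP4, DUSP5 and DUSP6 were lower. DUSP1 made up 7.996% and 52.5% of those sums, at 6.16 and 54.9 per kb. Without DUSP1 the remaining phosphatase genes summed to less in the resistant library than in the parental one.

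Genes of the cascade and its regulators are given beside the share of all expressed genes past 2-fold, 10.6% higher and 9.68% lower. Of 20 RAS, RAF, MEK and ERK genes with their adaptors and scaffolds, 0 were higher by 2-fold or more and 1 was that much lower, the scaffold KSR1 (-1.07), and 15 had ratios below 0 with a median of -0.22. In a list of 20 genes these counts lie near the background. Of 9 expressed RAS GTPase-activating genes 2 were higher past 2-fold, RASA3 (1.91) and RASAL2 (1.18), and 1 was lower. That gene, RASAL1, had 5704 parental and 79 resistant reads, or levels of 39.9 and 0.574 (-4.70). NF1, the partner of the SPRED proteins, stood at 217 and 140 (-0.63). CIC, the repressor of PEA3, Sprouty and DUSP genes that ERK signalling inactivates, was at 34.1 and 34.5, a log2 ratio of 0.02. In the list of CIC, its partners and kinases, the ERK-activated kinase genes RPS6KA2 (-1.37) and RPS6KA3 (1.15) were past 2-fold in opposite directions. RPS6KA3 had neighbours on chromosome X with a median log2 ratio of 1.33.

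Other genes that ERK induces went both ways. Of 26 expressed ones 8 were higher and 2 were lower by 2-fold or more, beside 10.6% and 9.68% of all expressed genes. Their median log2 ratio was 0.25. The ligand gene EREG (2.18), the receptor gene EPHA4 (2.07) and the adaptor gene SH2B3 (1.76), with levels of 5.45 and 20.9, had the largest increases. EPHA4 went from a level of 0.623, under the minimum of 1, to 5.83, so its resistant level alone made it count as expressed. The chemokine gene IL8 (-1.40) was lower past 2-fold. EREG and IL8 are close on chromosome 4, where the median log2 ratio of their neighbours was 0.96. A further list, of other feedback inhibitors of ERBB receptors and MAP kinases, held 13 genes, 2 of them the paralogs SPRY3 and SPRED3. Not all are inhibitors, since FLRT2 and FLRT3 encode partners of FGF receptors. Of the 13, 3 were higher and 2 were lower past 2-fold, beside 10.6% and 9.68% of all expressed genes. The FGF receptor partner genes FLRT2 (2.06) and FLRT3 (1.93) and the ERBB regulator gene LRIG1 (1.02) were higher. FLRT2 too counted as expressed by its resistant level alone, 6.66 beside a parental level of 0.833. The ubiquitin ligase gene CBLB (-1.36) and SPRY3 were lower.

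**Figure D4:**
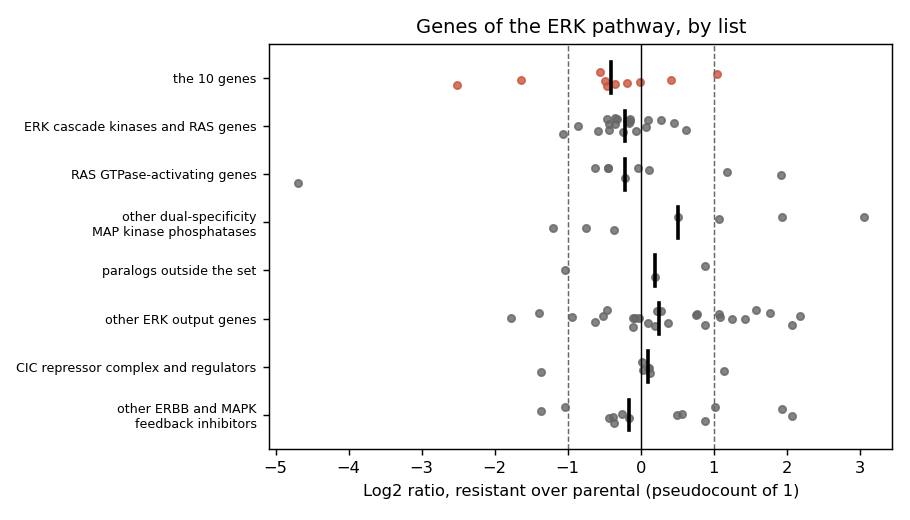
Log2 ratio, resistant over parental with 1 unit added, of each expressed gene in the set of 10 and in 7 lists of the ERK pathway; thick bars are medians and dashed lines mark 2-fold. The median is -0.41 for the 10 genes, -0.22 for the cascade and 0.25 for other ERK output genes.

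Neighbouring genes on a chromosome can share a shift in these libraries, so each gene was set beside the 20 nearest expressed genes on each side. The 40 neighbours of DUSP6 had a median log2 ratio of -0.04 and 19 of them were above 0. For SPRY1 the median was -0.28, and the gene remained 1.37 below it on the log2 scale. SPRY4 was the gene of the 10 whose neighbours were raised: 28 of 40 were above 0, with a median of 0.36. Relative to them its log2 ratio was 0.67, below the 2-fold threshold. ETV5 lay 0.28 above its neighbours, of which 10 of 40 were above 0, and SPRED2 lay 0.49 above. The neighbours of DUSP5 had a median of -0.32, with 12 of 40 above 0. Relative to neighbours the log2 ratio was -0.25 for DUSP5, -0.21 for DUSP4, -0.41 for SPRY2, -0.29 for ETV4 and -0.06 for SPRED1. With neighbours subtracted, 2 of the 10 genes were lower and 0 were higher by 2-fold or more, and the median of the 10 was -0.23. Of 13476 expressed genes treated in the same way, 8.99% were lower and 9.29% were higher, so these counts too lie near the background.

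**Figure D5:**
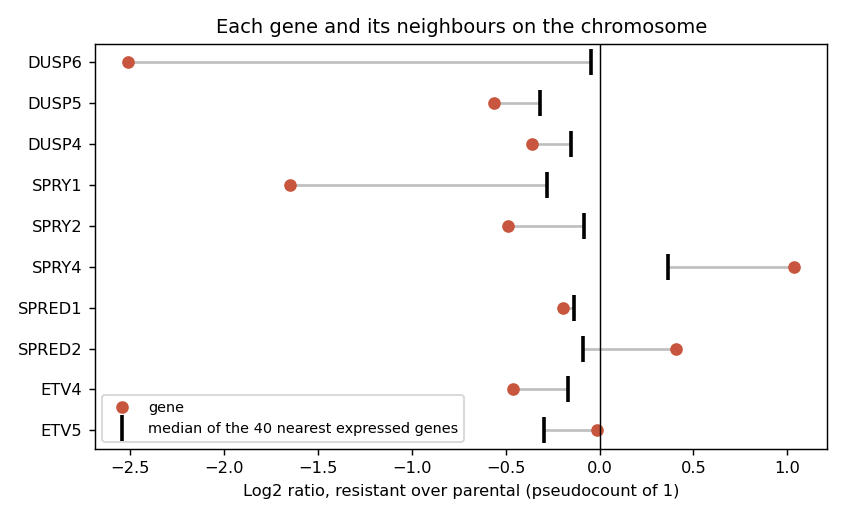
Log2 ratio of each of the 10 genes (circles) and the median of its 40 nearest expressed genes on the same chromosome (black marks). DUSP6 and SPRY1 lie far left of their marks at -0.04 and -0.28, and the mark of SPRY4 at 0.36 is the one right of 0.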

How the data were processed

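Polyadenylated RNA of 2 cell cultures was sequenced by Illumina HiSeq, per the labels' protocols. The submitters' processing notes list TopHat. No counter, strand setting or genome build is given in the sources used here. Per the labels, cells were grown in medium for isotope labelling of proteins, but whether these cultures were is not said. The deposited log2 values are called RPKM in the name of the table, but back-transformed they were whole multiples of 1 step per library (100% of genes with 1 to 100000 reads, within 0.1 read), so they are reads times 1 factor, not divided by length. The 3504 parental and 3573 resistant genes at the lowest value, 0.9 reads, were taken as 0. The column ending Prim was read as the parental line.

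Log2 ratios were taken as log2((resistant + 1)/(parental + 1)), a scale on which differences of low genes are understated. Expressed genes had a level of 1 or above in either library. Intervals are exact 95% Clopper-Pearson intervals for ratios and exact Poisson intervals per kb. No test was made. The genes and lists were chosen with earlier results of these data known. Named from each list were up to 3 genes per direction past 2-fold with the largest log2 ratio, besides the 10 genes, SPRY3, SPRED3, ETV1, CIC and NF1. A gene that this rule takes is not reported here. Of 28 listed output genes, 27 were found, since IL8 and CXCL8 are the same gene. Gene order, lengths and overlaps came from GENCODE release 29 by Ensembl identifier (97.8% of expressed genes matched), without coordinates. The TMM factor was computed in numpy 2.4.6. Calls of 2-fold were tested on simulated data with counting noise alone: 194 of 200 genes changed 4-fold among 13447 were called, with 0 false calls. Spread between cultures was not simulated, so these numbers cannot show how the calls hold against it. All changed genes were set at 4-fold, so calls of genes near the 2-fold threshold, such as SPRY4, were not tested.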

Additional observations from a re-analysis of the deposited data

How the results depend on the processing

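The 10 genes were recomputed with a pseudocount of 0.1, 5 or none (the last chosen after seeing the data), with no minimum level or one of 5, with the libraries scaled to equal totals, equal median ratio or by TMM, and with the neighbours' median subtracted. The count of genes at least 2-fold lower was 2 in all 9 settings, while the share of all genes tested that were lower ranged from 6.28% with a pseudocount of 5 to 11.4% with one of 0.1. The count at least 2-fold higher was 0 with a pseudocount of 5 and with neighbours subtracted, and 1 in the others, beside 6.54% to 12.4% of all genes. The median of the 10 was -0.23 with neighbours subtracted and -0.37 to -0.42 otherwise. The log2 ratio of DUSP6 ranged from -2.67 to -2.05 and that of SPRY1 from -1.84 to -1.18. ETV5 ranged from -0.02 to 0.28, with values above 0 under the scalings and with neighbours subtracted. Among the comparison lists the median of the CIC list turned to -0.11 with neighbours subtracted, and the cause was not tested. With a pseudocount of 5, other ERK output genes past 2-fold numbered 5 higher and 1 lower, and other phosphatases 1 and 0. The genes listed as other feedback inhibitors then numbered 1 and 1, and the cascade and the paralogs had 0 lower. With neighbours subtracted 0 cascade genes and 1 gene listed as a feedback inhibitor were lower. In that setting 0 genes of the CIC list were higher, and of the paralogs 1 was higher and 0 lower. SPRED3 was past 2-fold also with a pseudocount of 0.1 or none. The scalings shifted all log2 ratios by at most 0.04. No paired analysis was possible because each group held 1 library, and no library could be left out. Depth was not varied.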
